A study of Mus musculus with 8 samples.

Results

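Nrsn1 and Nrsn2, the mouse genes for neurensin-1 and neurensin-2, were followed in RNA that came down with tagged ribosomes from hippocampal cholecystokinin (CCK) cells. The 2 genes were selected by symbol among the 39017 genes of the count table. Nrsn2 drew attention through its difference between the genotypes in these same libraries, and Nrsn1 was taken as its paralogue, so their values in that comparison are given as a description, with no test. Translating ribosome affinity purification (TRAP) captures ribosomes that carry a tag, here L10 fused to EGFP, from cells in which Cre recombinase is driven by Cck. The mice were CCK cre+ and carried L10-EGFP. In the 5 conditional knockout (cKO) libraries they were also SMARCA3 fl/fl, and 3 libraries of littermates that were not served as wild type (WT). SMARCA3 is the protein of the gene Hltf. Each of the 8 libraries pooled 4 hippocampi. Age, sex and strain are not given in the sources used here, and nothing says how the pools relate to each other, so tests measure the spread between pools.

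Neurensins are small proteins with a pair of membrane-spanning segments, found mainly in neurons, where they sit on small vesicles of the cell body and its processes. Neurensin-1 has been linked to vesicle transport in growing neurites, and neurensin-2 is its close relative. SMARCA3 belongs to the SWI/SNF group of chromatin remodellers and works with p11 and annexin A2 in the nucleus of certain hippocampal cells.

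Nrsn2 (ENSMUSG00000059361) lies on mm10 chromosome 2, 152368755 to 152376638, minus strand, and has 1 annotated transcript of 3 exons and 1455 bases. Nrsn1 (ENSMUSG00000048978) lies on chromosome 13, 25252040 to 25270502, minus strand, with 5 transcripts, 2 of them coding, and 2798 bases of merged exon. The coding sequences span 202 codons in Nrsn2 and 196 in Nrsn1. The transcripts of the 2 genes share 0 runs of 25 bases, so a read of ordinary length from either one does not match the other exactly. Their promoters are shown because the paralogue that stands higher in cKO and the one that does not can be set side by side. The sequences are RefSeq windows of GRCm38.p6, both matched by symbol and cut where the GENCODE coding transcript begins. The Nrsn2 stretch lies outside the annotated span of its gene. The Nrsn1 stretch lies within that of Nrsn1, which reaches 25270502, so an annotated Nrsn1 transcript begins further upstream. The 2 stretches are therefore not placed alike. Capitals mark a GC box (GGGCGG, or CCGCCC on the other strand).
Nrsn2, chr2:152376639-152376855, minus strand: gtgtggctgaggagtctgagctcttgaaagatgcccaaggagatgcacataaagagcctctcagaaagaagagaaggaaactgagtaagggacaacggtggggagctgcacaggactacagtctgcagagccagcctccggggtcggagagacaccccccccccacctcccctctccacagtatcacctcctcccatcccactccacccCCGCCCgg
Nrsn1, chr13:25270083-25270246, minus strand: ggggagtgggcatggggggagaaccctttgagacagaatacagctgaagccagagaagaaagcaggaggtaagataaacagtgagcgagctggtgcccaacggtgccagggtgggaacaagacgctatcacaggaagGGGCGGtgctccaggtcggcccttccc

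In the full windows, 250 bases before to 50 after the RefSeq start, the GC box occurred once for Nrsn2 and at 2 places for Nrsn1. It is held by 35.7% of the 32851 windows in the table. The E-box CACGTG, which reads the same on both strands, was at 2 places in the Nrsn1 window, outside the stretch printed, and at 0 in that of Nrsn2. It is held by 7.15% of all windows. TATAAA and CCAAT, searched on both strands, had 0 matches in either gene, against 13.6% and 37.4% of windows. CG dinucleotides numbered 26 in the Nrsn1 window and 12 in that of Nrsn2, with a median of 7 over all windows. GC content was 66.7% for Nrsn1 and 60.3% for Nrsn2, and the median window had 52.7%. A match describes letters only, and no binding was measured here.

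Total counts ran from 31760155 to 61823651 per library and did not differ between the groups beyond the spread of the pools (exact permutation test, two-sided, p = 0.839). For Hltf, the floxed gene, WT 1, 2 and 3 had 13.7, 8.38 and 9.87 CPM (CPM being counts relative to the scaled library total). cKO 1, 2, 3 and 4 had 5.09, 4.49, 4.21 and 2.83 CPM. The library labelled cKO 5 had 11.4 CPM, within the WT range and unlike the other cKO libraries. The counts are per gene and recombination was not examined, so this level and the label cannot be reconciled from them. The difference of all 5 cKO from WT libraries had an adjusted p of 0.558 by edgeR's quasi-likelihood test with Benjamini-Hochberg adjustment. cKO 4 and the library labelled cKO 5 stood apart across 8167 named genes with a mean of at least 10 CPM. Their root mean square distance from the median library on the log2 scale was 0.363 and 0.449, against 0.202 to 0.249 in the other libraries. They had 18 and 51 genes at 0 counts among genes with a mean of at least 1 CPM, against 0 to 9 elsewhere. In bulk RNA, fewer cells of a type and less RNA per cell cannot be told apart.

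Nrsn2 was higher in every cKO library than in any WT library. WT 1, 2 and 3 had 129, 102 and 96.8 CPM, which rest on 4866, 5108 and 4695 counts. cKO 1, 2, 3 and 4 had 246, 254, 275 and 376 CPM and the library labelled cKO 5 had 390 CPM, resting on 12840, 15894, 8821, 17430 and 14373 counts. The lowest cKO library thus lay 1.90 times above the highest WT library. The WT mean was 109 ± 17.6 CPM (SD, n = 3) against 308 ± 69.5 CPM for cKO (SD, n = 5), a fitted fold of 2.82 (log2 1.50, SE 0.18). For comparison, 3.38% of the 17654 genes tested were higher and 3.82% lower in cKO without overlap between the groups, and since Nrsn2 was singled out by this contrast nothing is read from its place there. Among 9151 genes with a mean of at least 10 CPM, 4 had a higher log2 fold change, and the median size of a difference was 0.15. Named after their values were seen, they were Slc22a15 (3.29, SE 1.29), Gm14164 (2.02, SE 0.27), Preb (1.96, SE 1.10) and Gm26917 (1.78, SE 0.43).

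The level of Nrsn2 was not even across the cKO libraries. cKO 1, 2 and 3 had a mean of 258 ± 15.0 CPM (SD, n = 3), 2.36 times the WT mean. cKO 4 was at 3.44 times and the library labelled cKO 5 at 3.57 times the WT mean. The higher values are thus those of the libraries that stood apart across the transcriptome. Over the other 6 libraries the log2 fold change of Nrsn2 was 1.24. The library labelled cKO 5 combined the highest Nrsn2 level with an Hltf level like WT, while cKO 4 combined a similar Nrsn2 level with the lowest Hltf level. Leaving out the library labelled cKO 5 gave a log2 fold change of 1.39.

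Nrsn1 overlapped between the groups. WT 1, 2 and 3 had 62.3, 65.8 and 59.2 CPM of it, which rest on 2343, 3302 and 2875 counts. cKO 1, 2, 3 and 4 had 65.2, 72.5, 65.2 and 56.5 CPM and the library labelled cKO 5 had 81.2 CPM. The lowest and the highest value were both in cKO, again in the 2 libraries that stood apart. The WT mean was 62.4 ± 3.26 CPM (SD, n = 3) against 68.1 ± 9.26 CPM for cKO (SD, n = 5), with a log2 fold change of 0.13 (SE 0.13), smaller than its error.

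**Figure D1:**
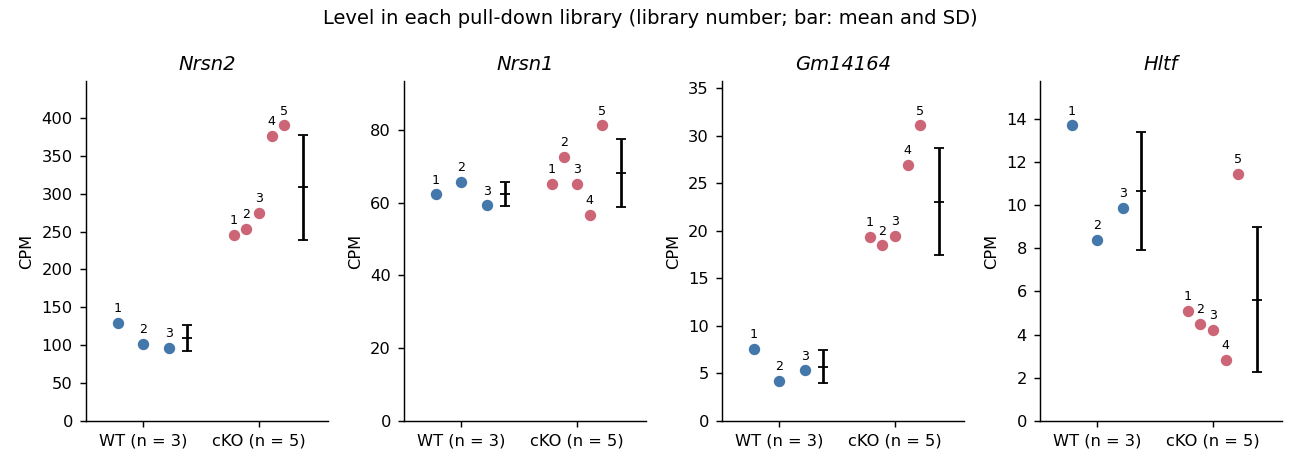
Level in CPM of Nrsn2, Nrsn1, the opposite-strand gene Gm14164 and Hltf in each of 3 WT (blue) and 5 cKO (red) libraries, labelled by library number, with the mean and SD of the group as a black bar; each panel has its own axis from 0. Nrsn2 and Gm14164 lie higher in all 5 cKO libraries, Nrsn1 overlaps, and Hltf in library 5 lies at 11.4 CPM among the WT values.

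Per length of exon, Nrsn2 was the more abundant paralogue in every library. On the scale of CPM per kb of merged exon, Nrsn2 was at 75.1 ± 12.1 in WT (SD, n = 3) and Nrsn1 at 22.3 ± 1.16. In cKO they were at 212 ± 47.7 and 24.4 ± 3.31 (SD, n = 5). Among 13834 tested protein-coding genes on this scale, Nrsn2 ranked between 407 and 573 in the WT libraries and between 99 and 170 in the cKO libraries. Nrsn1 ranked between 1838 and 2011 in WT and between 1551 and 2145 in cKO, above 84.5 to 88.8% of these genes in the cKO libraries. Neurensin transcripts as a whole were therefore among the more abundant messages of the pull-down, led by Nrsn2.

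Nrsn2 made up 80.0, 74.8 and 75.8% of the summed per-length level of both genes in WT 1, 2 and 3. It made up 87.9, 87.1, 89.0 and 92.8% in cKO 1, 2, 3 and 4, while the library labelled cKO 5 had 90.2%. The groups did not overlap. The share is built from the same Nrsn2 values, and Nrsn1 overlapped between the groups, so this is not a separate result. The mean share was 76.9 ± 2.72% over WT libraries (SD, n = 3) against 89.4 ± 2.23% over cKO libraries (SD, n = 5), a difference of 12.5 percentage points. The share of Nrsn1 was correspondingly 23.1% and 10.6%. The ratio of Nrsn2 to Nrsn1 was 3.37 ± 0.55 in WT and 8.83 ± 2.42 in cKO. The summed level was 97.4 ± 12.2 CPM per kb in WT and 236 ± 48.3 in cKO. On counts with no correction for length the shares were 63.4 ± 3.59% and 81.5 ± 3.59%.

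**Figure D2:**
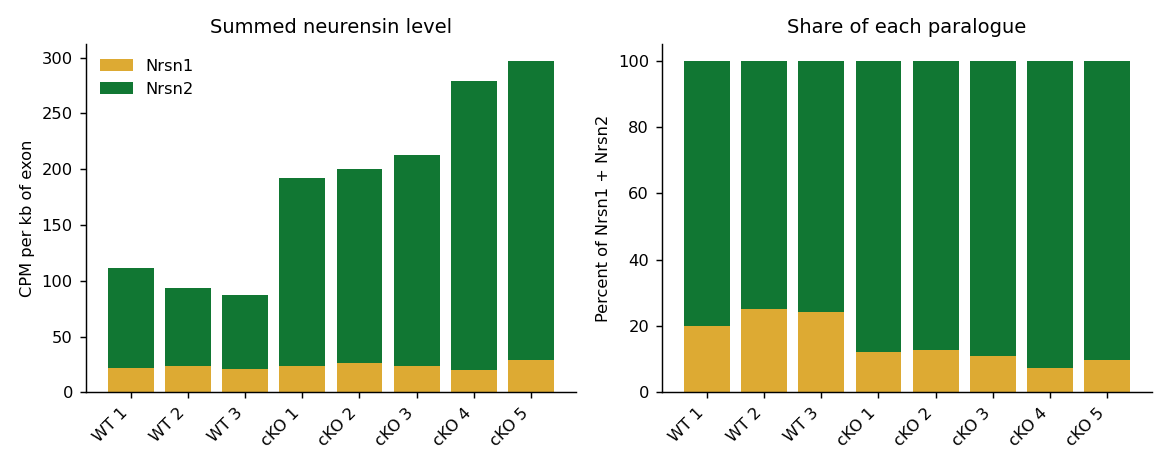
Left, CPM per kb of merged exon of Nrsn1 (yellow) and Nrsn2 (green) stacked for each of the 8 libraries; right, the same as percent of their sum. The green part grows from 74.8 to 80.0% in WT to 87.1 to 92.8% in cKO while the height of the yellow part in the left panel stays between 20.2 and 29.0.

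Gm14164, a non-coding gene on the opposite strand that overlaps Nrsn2, showed the same order of groups. Gm14164 (ENSMUSG00000068062, chromosome 2, 152345669 to 152375324, plus strand) had 7.60, 4.20 and 5.32 CPM in WT 1, 2 and 3. cKO 1, 2, 3 and 4 had 19.4, 18.5, 19.5 and 27.0 CPM of it, and the library labelled cKO 5 had 31.1 CPM. All cKO libraries lay above all WT libraries, and cKO 4 and the library labelled cKO 5 were again the highest. The fitted log2 fold change was 2.02 (SE 0.27). Its exons share 241 bases with those of Nrsn2, 16.6% of the Nrsn2 exon bases. Whether the counting used strand is not given in the sources used here, and without strand the reads within this shared stretch cannot be told apart. The rest of the exon bases of each gene, outside the other's exons, is assigned by position. Without strand, position gives the gene counted and not the strand a read came from. The shared bases begin at 152368755, the annotated 3' end of Nrsn2. From which strand the reads counted to Gm14164 came was not tested. Adding the counts of Gm14164 to Nrsn2 moved the difference in the share of Nrsn2 from 12.5 to 12.3 percentage points. Gm14164 had 211 to 1249 counts per library against 4695 to 17430 for Nrsn2, so this sum could move the share only little. It does not show which gene the reads of the shared stretch came from.

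The nearest tested protein-coding genes were Rbck1, Tbc1d20 and Csnk2a1 on the side of lower coordinates and Sox12, Zcchc3 and 6820408C15Rik on the other. Rbck1, which encodes a subunit of a ubiquitin ligase, averaged 19.7 ± 4.21 CPM over WT libraries (SD, n = 3) and 23.3 ± 5.53 CPM over cKO libraries (SD, n = 5). Tbc1d20, a GTPase-activating protein, had a log2 fold change of 0.24 (SE 0.14). Csnk2a1, the catalytic alpha subunit of casein kinase 2, had -0.07 (SE 0.12) and Zcchc3 -0.04 (SE 0.17). For 6820408C15Rik it was 0.99 (SE 0.85), with 7.08 CPM in cKO 4 against 0.299 to 1.81 CPM in the other cKO libraries and -0.0711 without cKO 4.
Sox12, a transcription factor of the SoxC group, 17.0 kb from Nrsn2, had 4.55, 4.54 and 6.94 CPM in WT 1, 2 and 3. cKO 1, 2, 3 and 4 had 4.46, 11.6, 7.36 and 7.36 CPM of it, and the library labelled cKO 5 had 40.9 CPM. Its log2 fold change of 1.42 (SE 0.65) rested on that library and was 0.52 without it, and the groups overlapped. The edgeR adjusted p of these 6 neighbours lay between 0.573 and 0.968, so none passed.

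Within 1 Mb of Nrsn2, 37 other genes were tested, of which 5 stood higher and 2 lower with an unadjusted edgeR p under 0.05. Over all genes tested these shares were 5.02% higher and 3.7% lower. The 7 genes became 13 by limma-voom and ran from 5 to 10 with 1 library left out, the latter without cKO 1. Of the 5 higher genes Gm14164 and Sox12 are described above, and Gm14150, Fam110a and Scrt2 were named after their values were seen, as were the lower genes Rad21l and Rps15a-ps7. Gm14150 and Rps15a-ps7 are processed pseudogenes, so their values are uncertain: reads of a near-identical parent gene cannot be told apart. Scrt2, a neuronal transcriptional repressor, had a log2 fold change of 0.67, Fam110a 1.27 at a mean of 1.67 CPM, and Rad21l -2.55 at a mean of 0.92 CPM. The median over the 37 genes was 0.14, against 0.02 over all genes tested.
Around Nrsn1, 17 genes within 1 Mb were tested, with a median of 0.07. The one gene there at an unadjusted p under 0.05 was 9330162012Rik (0.96), a non-coding gene named after its value was seen. That count was 0 without WT 1, cKO 1 or cKO 3 and 2 by limma-voom. The nearest tested protein-coding genes were Dcdc2a, Mrs2 and Gpld1 on one side and Sox4, Cdkal1 and E2f3 on the other, more than 3 Mb away. Their log2 fold changes lay between -0.14 for Gpld1 and 0.55 for Dcdc2a, and their edgeR adjusted p between 0.743 and 0.981. Dcdc2a had its highest levels in cKO 4 (43.8 CPM) and the library labelled cKO 5 (39.2 CPM), and over the other 6 libraries its log2 fold change was -0.30.

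**Figure D3:**
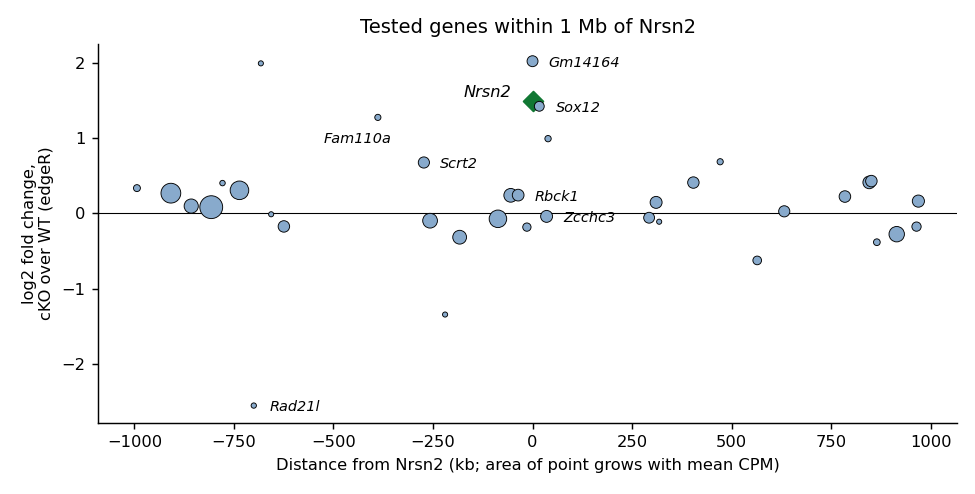
Fitted log2 fold change (cKO over WT) of the 37 tested genes within 1 Mb of Nrsn2 against their distance from it in kb, with Nrsn2 as a green diamond; larger points have a higher mean CPM. Nrsn2 at 1.50 and Gm14164 at 2.02 stand above the well-expressed neighbours, and Sox12 at 1.42 rests on the library labelled cKO 5.

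The genes most like Nrsn2 across the 8 libraries were taken by the root mean square difference between log2 CPM values centred on each gene's own mean, over 8167 named genes with a mean of at least 10 CPM. They were Pabpc1l2b-ps (0.32), Selenow (0.32), Eif6 (0.32), Syp (0.33) and Gse1 (0.33), against a median distance of 0.79 over these genes. Nrsn2 itself varied by 0.76 on that scale. Their own log2 fold changes lay between 0.86 for Syp and 1.03 for Gse1, below that of Nrsn2. Pabpc1l2b-ps is annotated as a pseudogene, so its value is uncertain. Gm14164, a predicted gene left out of the ranking, lay nearer, at 0.30. Nrsn1 ranked 2356 in likeness to Nrsn2, at 0.72.
Syp, the gene of synaptophysin, an abundant membrane protein of synaptic vesicles, had 301, 306 and 261 CPM in WT 1, 2 and 3. cKO 1, 2, 3 and 4 had 438, 458, 473 and 650 CPM of it, and the library labelled cKO 5 had 598 CPM. As for Nrsn2, the groups did not overlap and the 2 libraries that stood apart were the highest. Eif6, which encodes an initiation factor of ribosome assembly, lies on chromosome 2 as well. Its means were 15.95 ± 1.56 CPM for WT and 32.2 ± 5.67 CPM for cKO. Selenow, a small selenoprotein, was at 47.5 ± 7.56 and 94.9 ± 33.5 CPM, and its cKO values ran from 59.4 CPM in cKO 1 to 146 CPM in the library labelled cKO 5. Gse1 ran likewise from 115 CPM in cKO 1 to 304 CPM there. The likeness uses the group difference itself, so these genes were picked by the same contrast and their folds are given here with no test.
The genes most like Nrsn1 were Pigs, Fermt2, Trp53inp2, Fam98a and Fkbp15, at distances of 0.06 to 0.07 against a median of 0.26. Nrsn1 itself varied by 0.15. Nrsn2 ranked 8100 among the 8167 genes in likeness to Nrsn1.

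**Figure D4:**
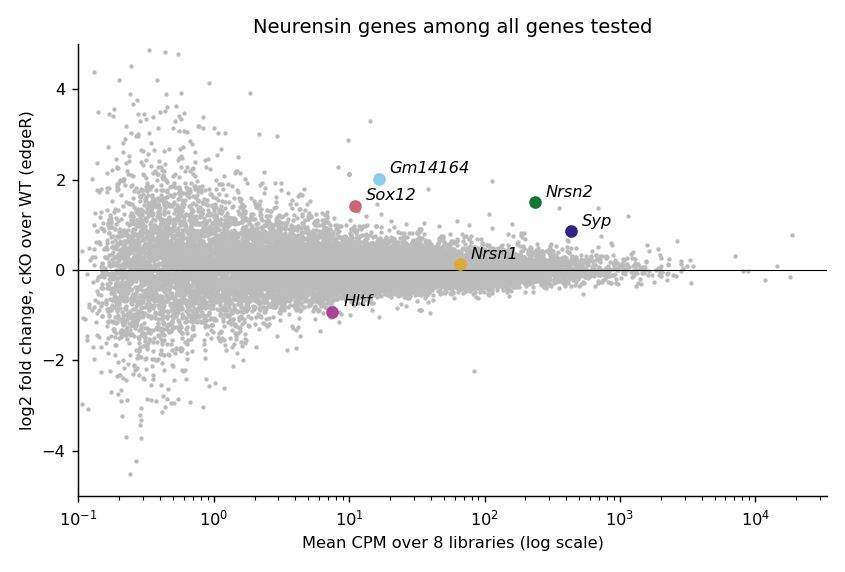
Fitted log2 fold change (cKO over WT) against the mean CPM over 8 libraries on a log axis for the genes tested (grey; 9 genes beyond a log2 change of 5 or under 0.1 CPM are outside the plot), with named genes in colour. Nrsn2 and Syp stand above the cloud at their expression, while Nrsn1 at 0.13 lies within it.

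Markers of the captured cells are given beside these values. Cck, the gene whose promoter drives Cre, averaged 539 ± 112 CPM over WT libraries (SD, n = 3) and 661 ± 108 CPM over cKO libraries (SD, n = 5). It had an edgeR adjusted p of 0.630. The summed level of 9 glutamatergic neuron markers was 10574 to 11287 CPM in WT and 11059 to 17574 CPM in cKO (exact permutation p = 0.161, and 0.402 when adjusted by Benjamini-Hochberg across the 10 marker lists). The sum is mostly that of Camk2a and Grin2b, at 6074 and 2591 CPM in a WT mean of 10841 CPM. Of the 9 markers, 6 had a log2 fold change above 0, against 53.0% of all genes tested. At an unadjusted edgeR p under 0.05, 3 were higher and 0 lower, against 5.02% and 3.7% of all genes tested. The higher ones were Slc17a7 and, named after their values were seen, Cpne6 (0.36, SE 0.10) and Camk2a (0.32, SE 0.14). Tbr1 (-0.18, SE 0.23), Neurod2 (-0.09, SE 0.12) and Neurod6 (-0.08, SE 0.11), named after their values were seen, lay below 0. The summed level was 13621 CPM in cKO 4 and 17574 CPM in the library labelled cKO 5, the libraries with the most Nrsn2. Slc17a7, a vesicular glutamate transporter, was at 344 ± 17.9 CPM in WT and 484 ± 44.7 CPM in cKO (edgeR adjusted p 0.470), with its highest values in the same libraries. The 8 markers of dentate granule cells summed to 85.3 and 119 CPM in those libraries and to 349 to 405 CPM in cKO 1, 2 and 3, while WT ran from 123 to 456 CPM. GABAergic markers (8 of 9 listed) summed to 169 to 215 CPM in WT and 134 to 223 CPM in cKO. CCK interneuron markers (10 of 10) summed to 1074 to 1084 CPM in WT and 1066 to 1315 CPM in cKO. Cck alone gave 539 CPM of the WT mean of 1080 CPM of that list. Of its 10 genes, 5 had a log2 fold change above 0.
The sum of 10 oligodendrocyte markers was 71.4 to 75.8 CPM in WT and 83.8 to 107 CPM in cKO, without overlap. That of 8 oligodendrocyte precursor markers was 32.1 to 37.6 and 41.2 to 59.3 CPM, also without overlap. The exact permutation p was 0.0357 for each, and 0.179 when adjusted across the 10 lists. A log2 fold change above 0 was found for 10 of 10 oligodendrocyte and 7 of 8 precursor markers, against 53.0% of all genes tested. At an unadjusted edgeR p under 0.05, 3 of each list were higher and 0 lower. Opalin, of the former, and Olig2, of the latter, were at 0 counts in at least 1 library. Astrocyte markers (10 of 10) summed to 25.8 to 39.0 and 31.996 to 36.9 CPM, vascular markers (10 of 10) to 55.4 to 72.9 and 22.7 to 87.0 CPM, and microglia markers (10 of 10) to 10.7 to 17.9 and 7.90 to 15.0 CPM. The vascular sum is nearly all Rgs5, at 60.8 CPM in a WT mean of 63.0 CPM. The vascular genes Cldn5, Tek, Slco1a4 and Vtn and the astrocyte genes Aldh1l1 and Agt were each at 0 counts in at least 1 library. So were the microglial genes Tmem119, C1qa, C1qb, C1qc and Aif1. Markers of choroid plexus and ependyma (8 of 8) summed to 33.7 to 45.8 and 35.7 to 87.3 CPM, with Tmem212 at 0 in all libraries. The share of counts from mitochondrially encoded genes was 0.139 to 0.176% in WT and 0.169 to 0.530% in cKO (exact p = 0.125). The part of cell content in the Nrsn2 values was not tested.

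Across the whole table, edgeR called 0 genes higher and 0 lower of 17654 at an adjusted p under 0.05, a background of 0% in each direction. At an unadjusted p under 0.05 there were 1540 genes (8.72%), 886 higher (5.02%) and 654 lower (3.7%). By DESeq2 there were 68 calls upward and 40 downward, and by limma-voom 3 and 1. The gene lists below describe the cell biology around the neurensins, and 0 of their tested genes passed the edgeR threshold.

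Of 31 other tested genes for vesicle membrane proteins, 5 stood higher and 1 lower with an unadjusted p under 0.05. Over all genes tested the shares were 5.02% higher and 3.7% lower. The median over the list was 0.06 (log2). The higher genes were Syp (0.86, SE 0.14), Slc17a7 (0.49, SE 0.10), Atp6v0c (0.25, SE 0.08) and, named after their values were seen, Atp6v0a1 (0.36) and Scamp5 (0.23). Atp6v0c and Atp6v0a1 encode subunits of the proton pump that acidifies vesicles. Syt2, a calcium sensor of fast release sites, was at 10.4, 6.11 and 4.88 CPM in WT 1, 2 and 3 and at 1.89 to 3.90 CPM in cKO (log2 -1.45, SE 0.33). The edgeR adjusted p was 0.446 for Syp and 0.470 to 0.499 for Slc17a7, Syt2 and Atp6v0c. With cKO 4 and the library labelled cKO 5 both left out, the 6 other libraries gave counts that were again 5 higher and 1 lower, and Syp had a log2 fold change of 0.65 and an edgeR adjusted p of 0.0418. The number higher was 3 without WT 2 or without WT 3, and the number lower was 2 without WT 2 or without cKO 4. Over the 17 alternatives the adjusted p of Syp ran from 7.6e-05 to 0.951. Syp was also picked by its likeness to Nrsn2 in these libraries, so nothing is read from its adjusted p, the 0.0418 included. With all 8 libraries DESeq2 gave Slc17a7 an adjusted p of 0.00658 and Syt2 one of 0.0179, and over the alternatives both ran up to 0.951.

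Of 22 tested genes for microtubule motors and their adaptors, 4 were higher and 0 lower, with a median of -0.04. Kif1a, a kinesin that carries synaptic vesicle precursors, averaged 600 ± 9.79 CPM over WT libraries (SD, n = 3) and 715 ± 40.4 CPM over cKO libraries (SD, n = 5), and its edgeR adjusted p was 0.499. Dctn1 (0.37, SE 0.12) and Dync1h1 (0.33, SE 0.12), parts of dynactin and dynein, and Klc2 (0.47, SE 0.21), a kinesin light chain, were the others. Over the 6 libraries 2 were higher and 0 lower, and 2 were higher without any one of the WT libraries. Without cKO 1 the counts were 5 higher and 2 lower, 1 was lower without the library labelled cKO 5, and with the GC and length correction 0 were higher and 1 lower.
Of 27 tested genes for neurite outgrowth, 3 were higher and 1 lower, with a median of 0.06. Basp1, a growth-associated membrane protein, was at 1511 ± 47.0 CPM in WT and 1186 ± 49.9 CPM in cKO, without overlap (edgeR adjusted p 0.470). Cap1, Ntrk3 and Dpysl2 had log2 fold changes of 0.20 to 0.26. Over the 6 libraries 0 of the list were higher and 2 lower. The number higher was also 0 without WT 1, WT 2 or the library labelled cKO 5, and 1 without WT 3, and the number lower was 2 without cKO 4.
Among 32 tested genes of early and recycling endosomes, 0 were higher and 1, Rab5a (-0.34, SE 0.14), was lower, with a median of 0.01. In that list 3 were higher without cKO 1 and 1 without cKO 3, while 0 were lower without WT 3, cKO 2 or cKO 4 and 2 without the library labelled cKO 5. Rab4b, Grip2 and Vps29 had log2 fold changes of 0.49, 1.14 and -0.19. Among 24 genes of late endosomes and lysosomes, 1 was higher and 0 lower, with a median of 0.06. The higher gene was Ctsd, the lysosomal protease cathepsin D, at 49.7 ± 6.03 CPM in WT and 82.5 ± 12.9 CPM in cKO, without overlap (log2 0.73, SE 0.15, edgeR adjusted p 0.470). In this list 2 were higher without WT 1, cKO 1 or the library labelled cKO 5, 3 by limma-voom or with the GC and length correction, and 1 was lower without cKO 1, cKO 3 or cKO 4. Ctsl, Rab7 and Lamtor1 had -0.45, 0.19 and 0.36.

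Of 23 tested genes for AMPA receptor subunits and their auxiliary proteins, 20 had a log2 fold change above 0, as did 9362 of the 17654 genes tested (53.0%). At the threshold, 6 stood higher and 1 lower with an unadjusted p under 0.05, against 5.02% higher and 3.7% lower over all genes tested. The median of the list was 0.22, against 0.02 over all genes tested. The higher genes were Porcn (0.45, SE 0.13), Nptxr (0.30, SE 0.10), Shisa7 (0.43, SE 0.15), Shisa6 (0.30, SE 0.12) and, named after their values were seen, Cnih2 (0.46) and Cacng8 (0.71). The lower one was Shisa8, at 0.27 CPM in WT, also named after its value was seen. Gria1, which encodes the subunit GluA1, was at 414 ± 30.9 CPM in WT and 508 ± 98.0 CPM in cKO, with 579 CPM in cKO 4 and 643 CPM in the library labelled cKO 5. cKO 2, at 413 CPM, lay within the WT range of 379 to 437 CPM, so the groups overlapped. Gria2 was at 688 ± 13.6 and 707 ± 139 CPM. The edgeR adjusted p of the 6 genes named by rule lay between 0.499 and 0.966. Over the 6 libraries 3 of the list were higher and 1 lower. The number higher was 2 without WT 1, 3 without any one of WT 2, WT 3, cKO 4 or the library labelled cKO 5, 9 without cKO 1 and 2 with the GC and length correction. The number lower was 0 without any one of the WT libraries, cKO 1 or cKO 3.

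Of the proteins that act with SMARCA3, S100a10, which encodes p11, was at 5.34 ± 0.80 CPM in WT and 5.57 ± 2.34 CPM in cKO (log2 0.06, SE 0.37). Ahnak, a large scaffold protein that binds p11, was at 2.01 ± 1.17 and 1.57 ± 1.36 CPM (edgeR adjusted p 0.928). Anxa2, the partner of p11, had 0 to 12 counts per library and was not tested.

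**Figure D5:**
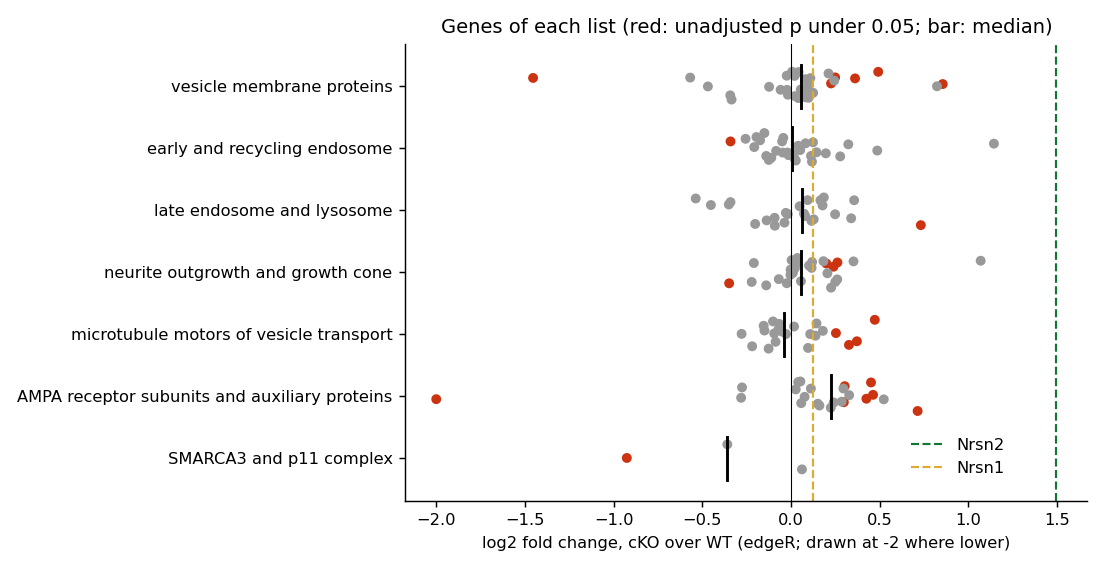
Fitted log2 fold change (cKO over WT) of each tested gene of 7 lists, Nrsn1 and Nrsn2 left out; red points have an unadjusted p under 0.05, black bars are list medians, the dashed lines mark Nrsn2 (green, 1.50) and Nrsn1 (yellow, 0.13), and 1 gene below -2 is drawn at -2. List medians lie between -0.36 and 0.22, and no listed gene reaches the line of Nrsn2.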

How the data were processed

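RNA from TRAP pull-downs was sequenced in 3 WT and 5 cKO libraries. The deposited values are raw counts per Ensembl gene that the authors made with STAR 2.5.3a and HTSeq on mm10, per the submitters' processing notes. The annotation release and the strandedness of counting are not given in the sources used here. Symbols, positions and merged exon lengths came from GENCODE vM21 (same build), which named 37607 genes (96.4%). Tests ran under R 4.3.3, the main one by edgeR 4.0.16 (TMM, filterByExpr, robust quasi-likelihood fit, two-sided, Benjamini-Hochberg over 17654 genes). DESeq2 1.42.0 and limma 3.58.1 (voom) were alternatives. CPM uses TMM-scaled totals. Marker sums were compared by exact permutation over 56 splits, for which the smallest possible p is 0.0179. Neither Scamp4, Limp2 nor Ckamp44 matched a gene name, and Dlx6os1 matched 2 rows and was left out. Figures used matplotlib 3.10.9.

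Members and lists were chosen with earlier results of these data known. Named genes are the members, genes overlapping them, the 3 nearest tested coding genes on each side, up to 4 genes with the smallest p of each list, fixed genes (Hltf, S100a10, Anxa2, Ahnak, Cck, Slc17a7, Gad1, Gria1, Gria2) and the 5 genes most alike to each member. Gad1, an enzyme of GABA synthesis, averaged 34.2 ± 10.1 CPM over WT libraries (SD, n = 3) and 35.25 ± 15.98 CPM over cKO libraries (SD, n = 5).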

Additional observations from a re-analysis of the deposited data

Results flagged for a closer look

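Of 66 measures with 5 cKO values each, 4 had a library far from the others, where chance gives about 3.3. Sox12 was at 40.9 CPM in the library labelled cKO 5, against 4.46 to 11.6 CPM in the other cKO libraries. Hltf was at 11.4 CPM in the same library, against 2.83 to 5.09 CPM. In cKO 4, 6820408C15Rik was at 7.08 CPM against 0.299 to 1.81 CPM, and the sum of the microglia markers was 7.90 CPM against 14.0 to 15.0 CPM. Nrsn1, Nrsn2 and the share of Nrsn2 had no such library.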

How the results depend on the processing

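Over 17 alternatives the log2 fold change of Nrsn2 ran from 1.24 to 1.63 and that of Nrsn1 from 0.05 to 0.21. With 1 library left out they ran from 1.39 to 1.63 and from 0.05 to 0.19, the difference in share from 11.5 to 14.0 percentage points, and the genes called by edgeR stayed at 0. That difference was 18.1 percentage points on counts with no length correction, and 12.3 to 14.5 with Gm14164 added or by the longest transcript.

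Genes called numbered 1 with library totals alone or with the GC and length correction, 2 with no filter or with 3 libraries required to reach a CPM of 1, 4 by limma-voom, 108 by DESeq2 and 10 over the 6 libraries. With the replicate block over these 6 libraries they were 0, with 1417 at an unadjusted p under 0.05. Nrsn2 was then at 1.25, Nrsn1 at 0.11 and the share at 11.1. Same-numbered WT and cKO libraries had correlated deviations of -0.0092, 0.0091 and -0.046 across genes, so the numbers give no sign of pairs. The highest correlation was that of WT 3 with cKO 1 (0.035), and WT 1 correlated best with cKO 3 (0.028).

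Alternatives for the other genes, lists and windows were added after seeing the data. Of 901 values of other named genes, 859 had the same direction and call, 27 reversed and 15 newly passed. Reversals by limma-voom were Dcdc2a (-0.13), Mrs2 (-0.0604), Cdkal1 (0.0109) and Gria2 (-0.11). Over the 6 libraries they were Dcdc2a (-0.30), Mrs2 (-0.13) and Gria2 (-0.0743), and with the block -0.34, -0.13 and -0.10. With 1 library left out, Gpld1 ran from -0.30 to 0.0737, Cdkal1 from -0.13 to 0.0783, Zcchc3 from -0.0928 to 0.0540, 6820408C15Rik from -0.0711 to 1.35, Ahnak from -0.97 to 0.19, S100a10 from -0.11 to 0.25, Gad1 from -0.15 to 0.28 and Gria2 from -0.0310 to 0.12. Of 272 list and window counts, 84 moved by over 1.5 times. The cause was not tested. Counts of 2093 or more per library for the members leave the spread between pools as the larger error.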
